A study of Homo sapiens with 30 samples.

Results

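The genes described are 10 enzymes grouped under androgen inactivation and steroid metabolism. They are 6 UDP-glucuronosyltransferases (UGT2B7, UGT2B10, UGT2B11, UGT2B15, UGT2B17 and UGT2B28), 2 hydroxysteroid dehydrogenases (HSD17B4 and HSD17B6) and 2 members of the steroid reductase family (SRD5A1 and SRD5A3). They were chosen by gene symbol, and each symbol matched 1 Ensembl gene in all 4 count tables, so that 10 of 57773 genes per table are covered. Their expression was followed across 14 groups of 3 prostate cancer cell lines.

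An androgen-responsive cell holds its level of dihydrotestosterone (DHT), the most potent natural androgen, by a balance of synthesis and removal. Reductases form DHT from testosterone or its precursors, and hydroxysteroid dehydrogenases oxidise or reduce the steroid at single positions, which switches it between active and weakly active forms. Glucuronosyltransferases attach glucuronic acid to DHT and to its reduced products, which makes them soluble and ends their hormonal action. In the prostate UGT2B15 and UGT2B17 are the enzymes best known for this last step.

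All libraries came from established human prostate cancer lines. VCaP cells were transfected for 2 days with 20 nM of a non-targeting siRNA or an siRNA to RB1, the retinoblastoma tumour suppressor gene (3 libraries each, labelled as grown in 10% serum, although the library names refer to charcoal-stripped serum). C4-2-tet-shRB cells, a C4-2 derivative in which doxycycline (0.05 µg/ml) switches on a short hairpin against RB1, were profiled in 2 experiments. In the first, kept in 5% charcoal-stripped serum, cells had no doxycycline or 3 days of it, each with DMSO or with 10 µM GSK2879552, which inhibits the lysine demethylase LSD1, for 24 hours (2 libraries in each of 4 groups). In the second, kept in 8% charcoal-stripped plus 2% regular serum, cells had 0, 3 or 30 days of doxycycline, each with vehicle or with 10 nM DHT for 24 hours (1 library in each of 6 groups, read in 2 lanes). LNCaP cells in 5% charcoal-stripped serum received vehicle or 1 µM GSK2879552 for 2 days (1 library each, also read in 2 lanes). No group had doxycycline without the RB1 hairpin, so effects of the drug and of RB1 depletion cannot be told apart. Nothing states that replicate libraries came from separate cultures, so p-values from groups with replicates measure the spread between these libraries only. In the second C4-2 experiment each group held 1 library. Its p-values rest on departures from a fit that adds the effects of doxycycline and DHT, and on spread shared across genes. They do not measure spread between replicates.

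The 6 UGT2B genes lie on chromosome 4 and are near copies of each other, which bears on every count below. Coding identity was 96.5% between UGT2B15 and UGT2B17 and 97.04% between UGT2B11 and UGT2B28, against 84.8% between UGT2B11 and UGT2B15. The first 60 coding bases are shown to let this be seen, from GENCODE transcripts on GRCh38 and not on the hg19 build of the counts, with capitals for bases that differ from UGT2B15 at the same position.
UGT2B15, chr4:68670559-68670618, minus strand: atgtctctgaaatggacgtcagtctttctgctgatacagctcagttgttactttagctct
UGT2B17, chr4:68568425-68568484, minus strand: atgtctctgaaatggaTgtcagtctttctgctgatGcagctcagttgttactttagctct
UGT2B11, chr4:69214663-69214722, minus strand: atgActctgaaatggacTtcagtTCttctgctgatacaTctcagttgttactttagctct
UGT2B28, chr4:69280501-69280560, plus strand: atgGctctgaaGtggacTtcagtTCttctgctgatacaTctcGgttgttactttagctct
UGT2B7, chr4:69096521-69096580, plus strand: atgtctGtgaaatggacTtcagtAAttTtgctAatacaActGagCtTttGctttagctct
UGT2B17 differs from UGT2B15 at 2 of these 60 positions, UGT2B11 at 5, UGT2B28 at 7 and UGT2B7 at 11. Of all distinct stretches of 50 bases in its transcripts, UGT2B15 shared 27.8% with another gene, nearly all of them (27.5%) with UGT2B17. The shared part was 36.4% for UGT2B11, 34.8% for UGT2B28, 30.9% for UGT2B10 and 5.38% for UGT2B7, mostly with each other and with UGT2B pseudogenes. It was at most 1.37% for HSD17B4, HSD17B6, SRD5A1 and SRD5A3. How the counting treated reads that match several genes is not given in the sources used here, so the split between UGT2B15 and UGT2B17, and among UGT2B10, UGT2B11 and UGT2B28, is uncertain. Sums over each of these sets are therefore given beside the single genes.

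Library totals ran from 4311455 to 7107036 counted reads in VCaP, 14515932 to 22326960 in the C4-2 table with GSK2879552, 14898454 to 16856486 in that with DHT and 13085157 to 14036346 in LNCaP. Levels are given as CPM, the count relative to the TMM-scaled library total, and scaling was done within each table. RB1 fell in every depletion, by 3.22 on the log2 scale in VCaP and by 2.14 to 2.98 in C4-2. The lines carried transcripts of the luminal marker KLK3 in all libraries, and ERG, the fusion-activated oncogene of VCaP, was at 273 to 325 CPM there and at most 0.219 CPM elsewhere. KRT5, a basal cell marker, was at 0 in all 22 libraries. KRT14, another basal marker, was at 5.32 to 7.68 CPM in VCaP and at most 0.434 CPM elsewhere. The leukocyte marker PTPRC reached at most 0.786 CPM. The liver gene ALB, a defining marker of the organ in which the UGT2B enzymes are most abundant, reached 38.1 to 59.98 CPM in VCaP and at most 0.458 CPM elsewhere. In bulk RNA, fewer cells of a type and less RNA per cell cannot be told apart.

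Compared per kilobase of exon, the lines used different sets of these enzymes. LNCaP stood out for the 2 main androgen-conjugating genes: UGT2B17 was at 33.9 and 31.1 CPM per kb and UGT2B15 at 18.9 and 17.4 CPM per kb in its vehicle and GSK2879552 libraries. In the other lines UGT2B17 stayed between 0.204 and 2.66 CPM per kb and UGT2B15 between 0.399 and 5.25 CPM per kb. VCaP stood out for HSD17B6, which oxidises the DHT product androstanediol back towards DHT: it was at 24.1 to 38.4 CPM per kb there, 0.574 to 3.83 CPM per kb in C4-2 and 0.191 and 0.465 CPM per kb in LNCaP. These levels were set by tables that were scaled separately and by 2 kinds of library kit, so they are side-by-side values with no test.

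UGT2B11 and UGT2B28 were high only in C4-2 with DHT, at 6.51 to 8.34 and 6.39 to 7.88 CPM per kb, and at most 0.842 and 0.411 CPM per kb in all other libraries of the 3 lines. HSD17B4, a peroxisomal protein that oxidises 17β-hydroxysteroids and serves the β-oxidation of fatty acids, was at 14.5 to 37.2 CPM per kb over all 22 libraries. SRD5A1, the reductase that acts on androstenedione and testosterone, was at 1.62 to 3.43 CPM per kb. SRD5A3, best known for the reduction of polyprenol to dolichol in protein glycosylation, was at 2.78 to 3.13 CPM per kb in VCaP, 7.38 and 7.48 CPM per kb in LNCaP and 8.84 to 15.2 CPM per kb in C4-2. UGT2B7, a broad-range enzyme, did not exceed 0.496 CPM per kb in any library, and UGT2B10 did not exceed 0.599 CPM per kb.

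**Figure D1:**
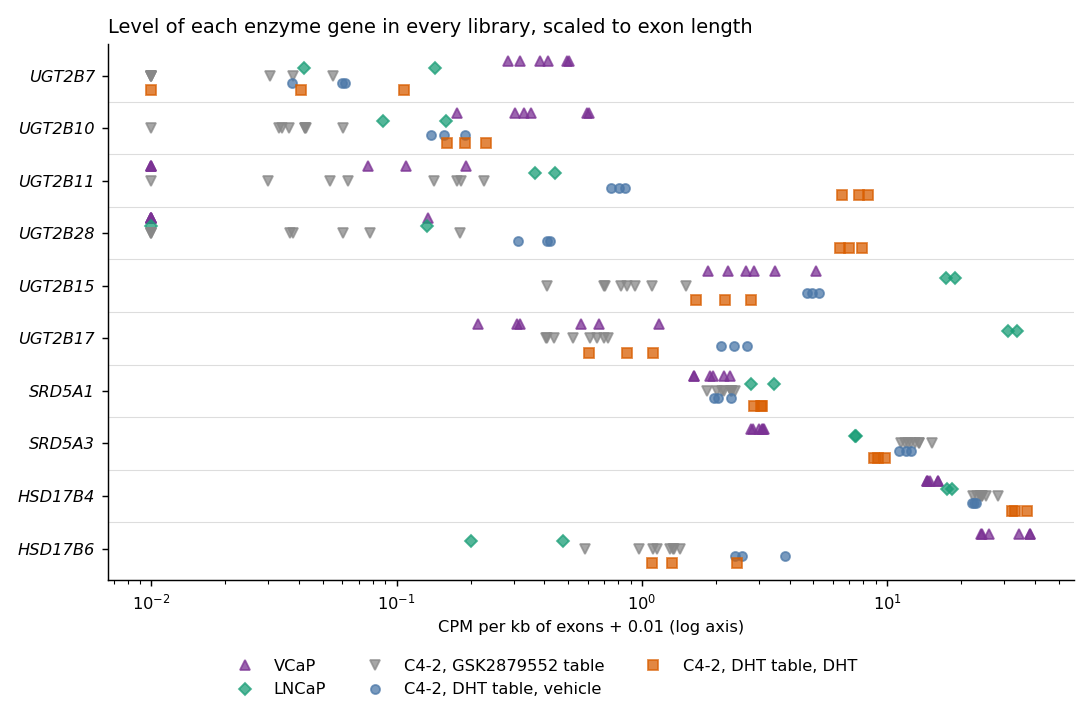
Level of each gene in every library, as CPM per kb of exon plus 0.01 on a log axis, with one symbol per line, table and DHT state. UGT2B17 and UGT2B15 sit farthest right in LNCaP (up to 33.9 and 18.9 CPM per kb), HSD17B6 in VCaP (up to 38.4) and UGT2B11 and UGT2B28 in C4-2 with DHT (up to 8.34 and 7.88).

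Within a line, the order of the levels per kilobase was clear only at the top, and it depends on the length used. Lengths cover the exons of all transcripts of a gene, 10.664 kb for HSD17B4 and 2.272 kb for HSD17B6. In control VCaP cells HSD17B6 (24.1 to 26.0 CPM per kb) led, followed by HSD17B4 (14.5 to 16.2). In plain CPM this order was reversed (means 56.3 and 166). SRD5A1, of 7.715 kb, likewise lay above UGT2B15 in plain CPM there (means 14.2 and 7.94). The same held in C4-2 with vehicle and no doxycycline (17.8 and 10.3 CPM). UGT2B15 (2.85 to 5.12) and SRD5A3 (2.83 to 3.09) overlapped, both lay above SRD5A1 (1.62 to 2.28), and the other UGT2B genes were at most 1.16 CPM per kb. For C4-2 cells, the vehicle libraries of the DHT experiment are given first. Their order was HSD17B4 (22.2 to 23.0 CPM per kb over 3 libraries), SRD5A3 (11.2 to 12.5) and UGT2B15 (4.70 to 5.25). Behind these, HSD17B6 (2.40 to 3.83) overlapped UGT2B17 (2.09 to 2.66), which overlapped SRD5A1 (1.96 to 2.31). In the experiment with GSK2879552, HSD17B4 and SRD5A3 also led by group mean, but SRD5A1 and not UGT2B15 came next in all 4 groups. Mean SRD5A1 and UGT2B15 were 1.964 and 1.095 CPM per kb with DMSO. With doxycycline and DMSO they were 2.34 and 0.631 CPM per kb, and HSD17B6 (1.03) also lay above UGT2B15.

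The comparison of DHT with vehicle in C4-2 cells asked how expression of these genes differs when the hormone is added. UGT2B11 and UGT2B28, both below 2 CPM without hormone, rose most among the 8 members tested, while UGT2B15 and UGT2B17 fell. HSD17B4 and SRD5A1 rose, and HSD17B6 and SRD5A3 fell. In all, 8 of 8 members that passed the filter on low counts were called, 4 in each direction with a median log2 change of 0.08, where edgeR called 47.1% of 17300 genes (24.3% higher, 22.8% lower) at an adjusted p under 0.05. UGT2B7 (0 to 3 counts) and UGT2B10 (4 to 6 counts) did not pass the filter and were not tested. The 3 vehicle libraries were separate from the 3 DHT libraries for 7 of the 8 members, against 53.7% of 16003 genes.

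UGT2B11, whose substrates are poorly known, was at 1.73, 1.86 and 1.97 CPM in the vehicle libraries with 0, 3 and 30 days of doxycycline. With DHT it was at 15.2, 19.5 and 17.9 CPM. Every DHT library lay far above every vehicle library, whatever the doxycycline. The edgeR fit, with doxycycline as a second term, gave a log2 change of 3.24 ± 0.14 (SE), a 9.44-fold rise (adjusted p = 5.79e-17, higher in 3 of 3 pairs).

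UGT2B28, which conjugates androgens and bile acids, rested on 9, 13 and 13 counts in the vehicle libraries and 175, 202 and 169 counts with DHT. These counts correspond to 0.557, 0.734 and 0.753 CPM, and to 12.8, 14.4 and 11.7 CPM. The groups did not overlap, and every DHT library lay far above every vehicle library. Its log2 change was 4.23 ± 0.19, an 18.8-fold rise (edgeR, adjusted p = 9.74e-17). Within single pairs the ratio was 23.1, 19.7 and 15.5, with exact 95% intervals of 11.9 to 51.4, 11.2 to 37.6 and 8.85 to 29.8, which cover counting error only. Summed with UGT2B10, as the reads may be split among them, the 3 genes rose by 3.45 ± 0.11 (edgeR, adjusted p = 1.26e-19).

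UGT2B15 was at 10.3, 9.76 and 10.9 CPM with vehicle and at 3.42, 5.79 and 4.50 CPM with DHT. UGT2B17, its closest relative, was at 4.33, 5.53 and 4.93 CPM with vehicle and at 1.24, 1.79 and 2.29 CPM with DHT. For both genes all 3 DHT libraries lay below all 3 vehicle libraries. The log2 change was -1.17 ± 0.15 for UGT2B15 (edgeR, adjusted p = 1.78e-07) and -1.47 ± 0.20 for UGT2B17 (edgeR, adjusted p = 8.26e-07). Summed counts of the pair fell by 1.26 on the log2 scale (SE 0.12, edgeR, adjusted p = 1.51e-09). The sum does not show how each of the 2 genes would move under another split of shared reads.

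**Figure D2:**
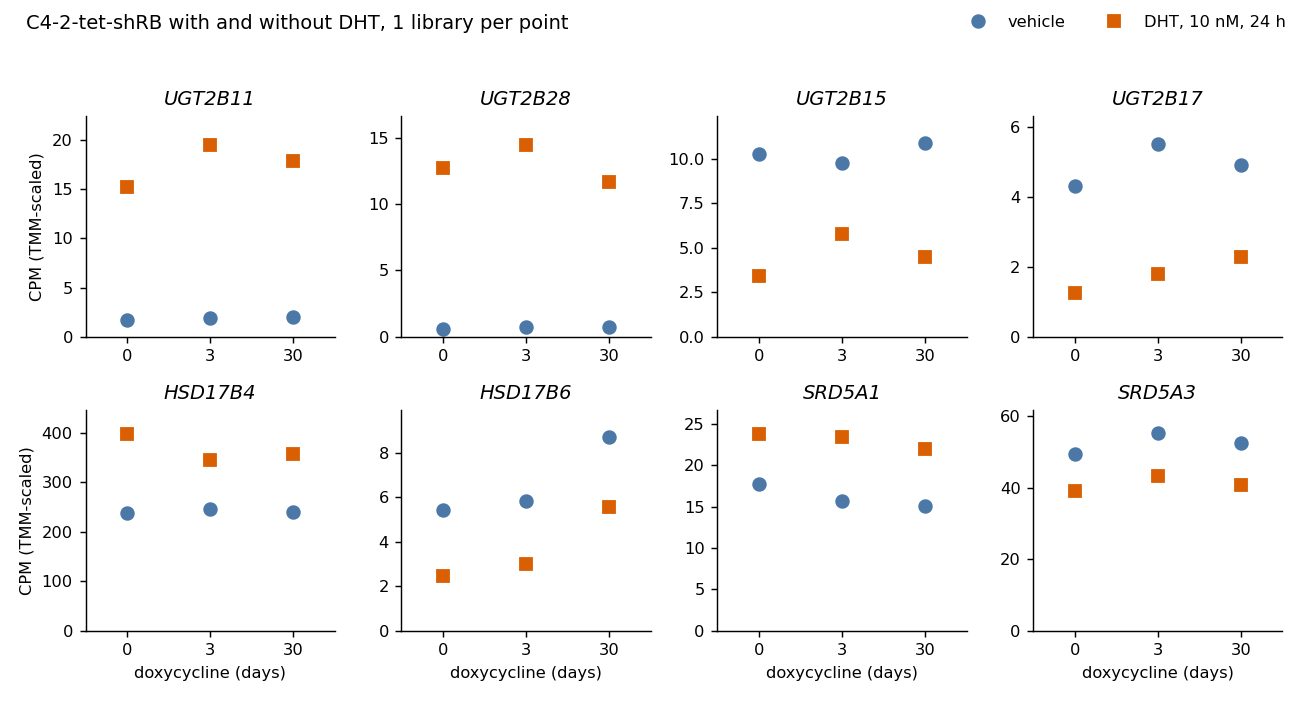
CPM of the 8 members that passed the filter in C4-2-tet-shRB cells against days of doxycycline, with circles for vehicle and squares for DHT, 1 library per point. The DHT libraries lie above the vehicle libraries for UGT2B11, UGT2B28, HSD17B4 and SRD5A1 and below them for UGT2B15, UGT2B17 and SRD5A3, while for HSD17B6 the groups overlap (5.54 CPM in the highest DHT library, 5.44 CPM in the lowest vehicle library).

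The make-up of UGT2B transcripts in C4-2 cells differed between the hormone states. UGT2B11 and UGT2B28 together held 13.3%, 14.2% and 14.3% of the counts of the 6 UGT2B genes in the vehicle libraries, and 84.4%, 80.9% and 80.4% with DHT. The total of the 6 genes was 278, 324 and 328 counts with vehicle and 455, 587 and 531 counts with DHT. In LNCaP the same 2 genes held 0.909% and 1.03% of 1540 and 1355 counts. The exact binomial 95% interval of the lowest DHT share ran from 76.8% to 83.7% and that of the highest vehicle share from 10.7% to 18.6%, counting error only.

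**Figure D3:**
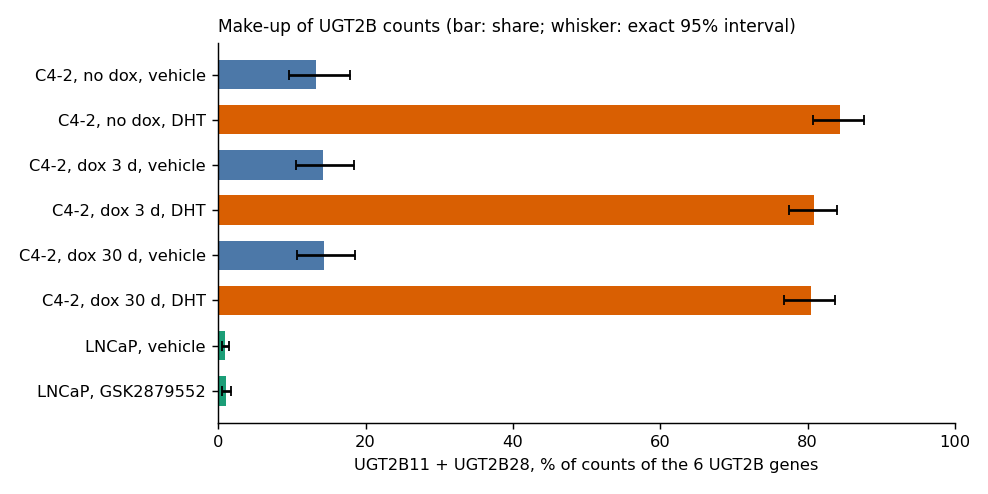
Share of the counts of the 6 UGT2B genes held by UGT2B11 and UGT2B28, as bars from 0 to 100% with exact 95% intervals, in the C4-2 libraries of the DHT experiment and in LNCaP. The DHT bars reach 80.4 to 84.4%, the vehicle bars 13.3 to 14.3%, and the LNCaP bars 0.909 and 1.03%.

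Since UGT2B11 and UGT2B15 moved in opposite directions, the 250 bases before their RefSeq start sites (GRCh38.p14) are shown, with capitals for the motifs searched.
UGT2B15, chr4:68670653-68670902, minus strand: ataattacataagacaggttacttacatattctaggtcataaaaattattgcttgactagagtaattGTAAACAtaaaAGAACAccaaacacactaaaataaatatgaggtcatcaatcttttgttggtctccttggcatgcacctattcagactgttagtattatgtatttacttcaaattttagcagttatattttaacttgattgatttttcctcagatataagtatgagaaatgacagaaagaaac
UGT2B11, chr4:69214749-69214998, minus strand: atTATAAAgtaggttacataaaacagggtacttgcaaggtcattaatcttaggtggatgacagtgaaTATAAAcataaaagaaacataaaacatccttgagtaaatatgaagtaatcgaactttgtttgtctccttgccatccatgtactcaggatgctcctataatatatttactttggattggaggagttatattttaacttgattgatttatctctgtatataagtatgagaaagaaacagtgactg
The motifs were the hexamer AGAACA, the HNF1 half-site GTTAAT and the forkhead motif TGTTTAC, each on both strands, and the letters TATAAA on the sense strand, over 300 bases that include the first 50 after the start. UGT2B15 held one AGAACA, 172 bases before the start, and one forkhead match on the other strand, 183 bases before it. UGT2B11 held no AGAACA and had TATAAA at 248 and 183 bases before the start. No HNF1 half-site was found in the promoters of the 7 members that had one in RefSeq's table, and no AGAACA in those other than UGT2B15. Of 35116 promoters of this length, 14.8% held AGAACA, 3.42% the forkhead motif, 6.88% GTTAAT and 7.33% TATAAA. The promoters of UGT2B11 and UGT2B15 were identical at 70.5% of aligned positions, and those of UGT2B11 and UGT2B10 at 90.1%. A match of letters is a description and not a binding site.

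The dehydrogenases split under DHT. HSD17B4 was at 237, 245 and 240.3 CPM with vehicle and at 397, 344 and 356 CPM with DHT, with no overlap between the groups. It rose by 0.60 ± 0.05 on the log2 scale, or 1.52-fold (edgeR, adjusted p = 5.07e-10). HSD17B6 was at 5.44, 5.81 and 8.69 CPM with vehicle and at 2.48, 3.00 and 5.54 CPM with DHT. It was lower with DHT in 3 of 3 pairs, although the DHT library with 30 days of doxycycline overlapped the vehicle range. Its log2 change was -0.86 ± 0.16 (edgeR, adjusted p = 4.8e-05).

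The reductase family split as well. SRD5A1 was at 17.8, 15.7 and 15.1 CPM with vehicle and at 23.8, 23.5 and 22.0 CPM with DHT, and it rose by 0.51 ± 0.08 on the log2 scale (edgeR, adjusted p = 1.2e-05). SRD5A3 was at 49.3, 55.2 and 52.6 CPM with vehicle and at 39.1, 43.3 and 40.7 CPM with DHT, and it fell by 0.35 on the log2 scale (SE 0.06, edgeR, adjusted p = 3.93e-05). In neither gene did the groups overlap. These were the 2 smallest changes among the 8 members tested, at 1.43-fold and 1.28-fold. TMM factors were lower in the DHT libraries (0.919 to 0.958) than in the vehicle libraries (1.05 to 1.08). On total counts alone, SRD5A1 without doxycycline was at 1.14 times its vehicle level with DHT, against 1.35 times after scaling, with the same direction.

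Each doxycycline level was also compared on its own, as 1 library against 1 with no test, and only for genes whose 2 counts summed to 100 or more. At least 2-fold differences were seen in 4 of 7 members without doxycycline (7.6% of 12125 genes), 3 of 8 after 3 days (5.14% of 12288) and 4 of 8 after 30 days (5.11% of 12312). UGT2B11 and UGT2B28 were past 2-fold at all 3 levels. UGT2B15 was 2.97-fold lower without doxycycline (95% interval 2.14 to 4.20), 1.69-fold lower after 3 days (1.29 to 2.22) and 2.42-fold lower after 30 days (1.82 to 3.26). HSD17B6 was 2.18-fold lower without doxycycline (1.45 to 3.34), 1.94-fold lower after 3 days (1.34 to 2.84) and 1.57-fold lower after 30 days (1.19 to 2.08). With 1 library per group, whether the DHT response differed between doxycycline levels was not tested.

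Other genes of these pathways, from lists drawn up by function, are given for the same DHT comparison, in which 47.1% of all genes were called. Of 12 genes of peroxisomal β-oxidation, the pathway that HSD17B4 serves, 7 rose and 2 fell, with a median log2 change of 0.32 beside -0.02 over all genes. AMACR, the racemase used as a prostate cancer marker, rose by 2.07 ± 0.07, while the import receptor PEX5 fell by 0.35 (both edgeR, adjusted p under 0.05). For SRD5A3 the list held 8 genes that make or use dolichol, DPM3 being one of the users. Of these, 4 rose and none fell (median 0.16), led by the kinase DOLK (0.68 ± 0.07) and DPM3 (0.60 ± 0.08). SRD5A3 itself was lower.

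Of 33 other genes of androgen synthesis and interconversion, 18 were tested, 9 rose and 1 fell (median 0.17). HSD17B11, which oxidises androstanediol, rose by 0.84 ± 0.10, CYB5A, a cofactor of CYP17A1, rose by 0.44 ± 0.06, and HSD11B2, which inactivates cortisol, fell by 0.43 on the log2 scale. Of 8 genes of steroid sulfation, 5 were tested, 3 rose and 1 fell (median 0.36). The steroid sulfatase STS rose by 1.21 ± 0.08, the transporter SLC35B2 by 0.51 ± 0.05, and the sulfotransferase SULT2B1 fell by 0.71.

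A further list held 6 genes of UDP-glucuronate supply and use, nucleotide-sugar transport and glucuronide removal. Of these, 2 rose (the nucleotide-sugar transporter SLC35D2 by 0.51 ± 0.10 and UGP2 by 0.18 ± 0.07). The glucuronidase GUSB fell by 0.16 on the log2 scale (median of the list 0.01). Among 16 further UGT genes only 2 passed the filter, of which UGT2B4 rose by 2.16 ± 0.64 and UGT8, which makes galactosylceramide, fell by 1.17. The hepatocyte marker list, relevant as UGT2B genes are liver genes, summed to 2.77 to 4.14 CPM with vehicle and 2.502 to 2.77 CPM with DHT. ALB did not exceed 0.247 CPM in these libraries, and APOA1 of the same list was at 1.86 to 3.03 CPM. The prostate luminal list summed to 5842 to 6212 CPM with vehicle and 10792 to 13254 CPM with DHT, with KLK3 up by 1.03 on the log2 scale. The fibroblast list summed to 7.98 to 8.58 and 10.04 to 10.9 CPM, and the leukocyte list to 0.169 to 0.371 and 0.0715 to 0.146 CPM, in the same order. The fibroblast sum was nearly all COL1A1 (7.92 to 10.9 CPM), with COL1A2 at 0 and DCN at most 0.0619 CPM. The part of these lists in the enzyme changes was not tested.

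The siRNA experiment in VCaP compared these enzymes between cells given the control siRNA and cells given the RB1 siRNA. HSD17B6 rose and UGT2B15 fell, and the other 3 members that passed the filter (HSD17B4, SRD5A1 and SRD5A3) were not called. That is 2 of 5 members called, where edgeR called 5.62% of 14066 genes. UGT2B7, UGT2B10, UGT2B11, UGT2B17 and UGT2B28, with 0 to 11 counts per library, were not tested.

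HSD17B6 was at 55.3, 59.0 and 54.7 CPM with the control siRNA and at 86.9, 87.3 and 78.7 CPM with the RB1 siRNA. All 3 depleted libraries lay above all 3 controls. The means were 56.3 ± 2.32 and 84.3 ± 4.83 CPM (SD, n = 3 each), and edgeR gave a log2 change of 0.58 ± 0.07 (adjusted p = 1.17e-10).

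UGT2B15 was at 5.92, 10.6 and 7.25 CPM in the controls, from 26, 46 and 33 counts, and at 5.51, 4.66 and 3.84 CPM after RB1 siRNA, from 39, 30 and 24 counts. The groups did not overlap, but the nearest libraries were close and the second control was the highest. Its log2 change was -0.75 ± 0.22 (edgeR, adjusted p = 0.02). Without that second control library it was -0.49 with an adjusted p of 0.339 in edgeR, and the call was also lost without replicate 2 or replicate 3 of the RB1 siRNA (adjusted p = 0.0718 and 0.0784). DESeq2 gave UGT2B15 a log2 change of -0.76 and no adjusted p. Summed with UGT2B17 the 2 genes fell by 0.86 on the log2 scale (SE 0.20, edgeR, adjusted p = 0.00168). HSD17B6 and UGT2B15 were the 2 of 5 tested members without overlap between the groups, against 21.3% of all genes.

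HSD17B4 was at 173, 155 and 171 CPM in the control VCaP libraries and at 159.7, 157 and 155 CPM after RB1 siRNA, with overlapping groups. SRD5A1 (12.5, 12.5 and 17.6 CPM against 14.5, 14.9 and 16.6 CPM) and SRD5A3 (13.7, 13.2 and 12.5 CPM against 12.3, 13.8 and 13.8 CPM) overlapped too. Their log2 changes were -0.08 ± 0.05, 0.10 ± 0.14 and 0.01 ± 0.14. The control libraries were shallower (4311455 to 4551211 counts) than the depleted ones (6218938 to 7107036 counts). The hepatocyte list summed to 62.7 to 74.0 CPM in the controls and 43.5 to 51.3 CPM after RB1 siRNA, and the basal list to 5.78 to 5.93 and 7.20 to 7.84 CPM. Most of the hepatocyte sum was ALB (38.1 to 59.98 CPM), with APOA1 at most 0.311 CPM. Most of the basal sum was KRT14 (5.32 to 7.68 CPM), with KRT5 at 0. The part of these lists in the changes of the members was not tested. Of the 83 genes of the other 6 lists 44 were tested in VCaP, and none was called.

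**Figure D4:**
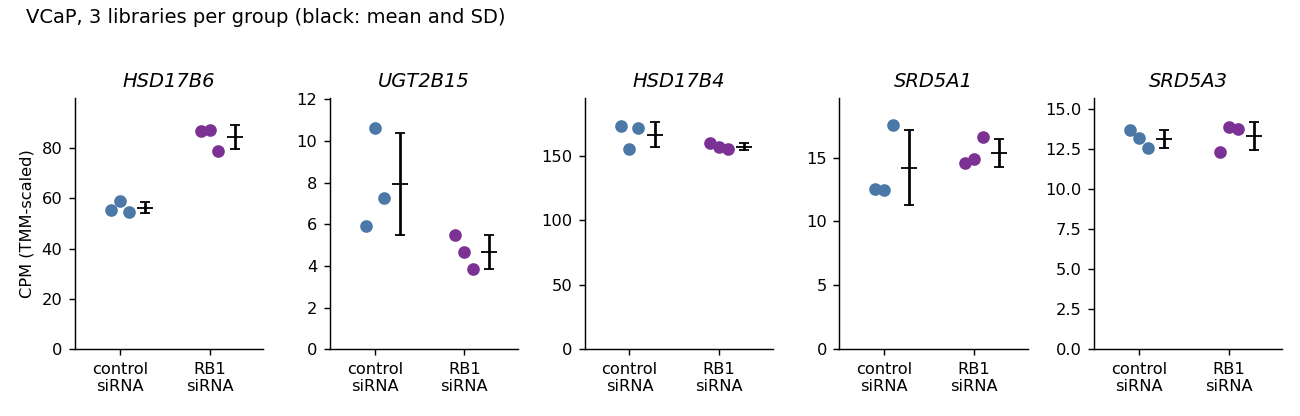
CPM of the 5 members tested in VCaP cells with control or RB1 siRNA, 1 point per library, with the mean and SD of 3 libraries in black. HSD17B6 is higher after RB1 siRNA (84.3 against 56.3 CPM), UGT2B15 is lower with a wide control spread, and the groups overlap for HSD17B4, SRD5A1 and SRD5A3.

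In C4-2 cells RB1 depletion by doxycycline was profiled in both experiments. In the experiment with GSK2879552, 3 days of doxycycline gave 0 calls among 6 members tested, and UGT2B7, UGT2B10, UGT2B11 and UGT2B28 were too low to be tested. This held both with DMSO (7.84% of 18423 genes called by edgeR) and with GSK2879552 (7.72%). At an unadjusted p under 0.05 there were 2 members with DMSO (UGT2B15 and SRD5A1) and 1 with GSK2879552 (SRD5A3). DESeq2 called none either, and gave 3 of the 6 no adjusted p in each of these comparisons. UGT2B15 was at 1.44 and 3.11 CPM without doxycycline and 0.829 and 1.79 CPM with it, so the 2 replicates of each group differed by about as much as the groups, and the log2 change was -0.80 ± 0.38 (edgeR, adjusted p = 0.224). SRD5A1 was at 14.1 and 16.2 CPM without doxycycline and at 18.3 and 17.7 CPM with it, a log2 change of 0.24 ± 0.11 (edgeR, adjusted p = 0.206). SRD5A3 went from 59.6 and 50.3 to 59.7 and 67.2 CPM in cells with GSK2879552, a log2 change of 0.21 ± 0.09 (edgeR, adjusted p = 0.164). Calls appeared when 1 inhibitor library without doxycycline was left out: SRD5A3 had an adjusted p of 0.00529 in edgeR without replicate 1, and without replicate 2 it was 0.00947 for HSD17B4 (with the inhibitor) and 0.0493 for UGT2B15 (with DMSO). Over both drug states the 4 doxycycline libraries of SRD5A1 lay above the 4 without, the only member of 6 for which these did not overlap, against 19.5% of 17612 genes.

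In the DHT experiment 3 days of doxycycline again gave 0 calls among 8 members (0.468% of 17300 genes by edgeR, 0 members at an unadjusted p under 0.05, and none of those to which DESeq2 gave an adjusted p). After 30 days 1 of 8 members was called, where edgeR called 4.03% of genes. This was HSD17B6, at 5.44 CPM with vehicle without doxycycline and at 8.69 CPM after 30 days, and with DHT at 2.48 and 5.54 CPM. It was higher in both pairs, and its log2 change was 0.84 ± 0.19 (edgeR, adjusted p = 0.009). Without the DHT library of 30 days it was 0.70 with an adjusted p of 0.114 in edgeR, and DESeq2 gave this gene no adjusted p. Between 30 and 3 days no member was called (0.324% of genes by edgeR, 1 member at an unadjusted p under 0.05, none of those to which DESeq2 gave an adjusted p), with 0.71 ± 0.18 for HSD17B6 (adjusted p = 0.11), although leaving out either library without doxycycline gave adjusted p-values of 0.0072 and 0.00668 in edgeR.

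UGT2B11 and UGT2B28 showed no called change with doxycycline, at 0.23 ± 0.16 and -0.07 ± 0.19 on the log2 scale after 30 days. The same held for HSD17B4 (-0.07 ± 0.07), SRD5A1 (-0.18 ± 0.10) and SRD5A3 (0.07 ± 0.08). The difference of the 3-day doxycycline effect between the 2 C4-2 experiments was called for 0 of 8 members (1.04% of 19898 genes by edgeR), with UGT2B15, UGT2B28 and SRD5A1 at an unadjusted p under 0.05. UGT2B28 was near 0 counts in the first experiment, so its fitted value is not given. The difference was -0.98 ± 0.42 for UGT2B15 (edgeR, adjusted p = 0.349) and 0.36 ± 0.15 for SRD5A1 (edgeR, adjusted p = 0.346).

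The 2 experiments differed in the level of these genes before any effect. Without doxycycline, DHT or inhibitor, UGT2B15 was at 1.44 and 3.11 CPM in one and 10.3 CPM in the other, and UGT2B17 at 0.824 and 0.888 CPM against 4.33 CPM. UGT2B11 was at 0 and 0.507 CPM against 1.73 CPM, and HSD17B6 at 1.30 and 2.60 CPM against 5.44 CPM. HSD17B4 (271 and 259.8 CPM against 237 CPM) and SRD5A3 (54.0 and 52.1 CPM against 49.3 CPM) were closer. Serum, library kit (polyadenylated RNA in the first, total RNA in the second) and scaling all differed between the experiments and cannot be told apart.

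**Figure D5:**
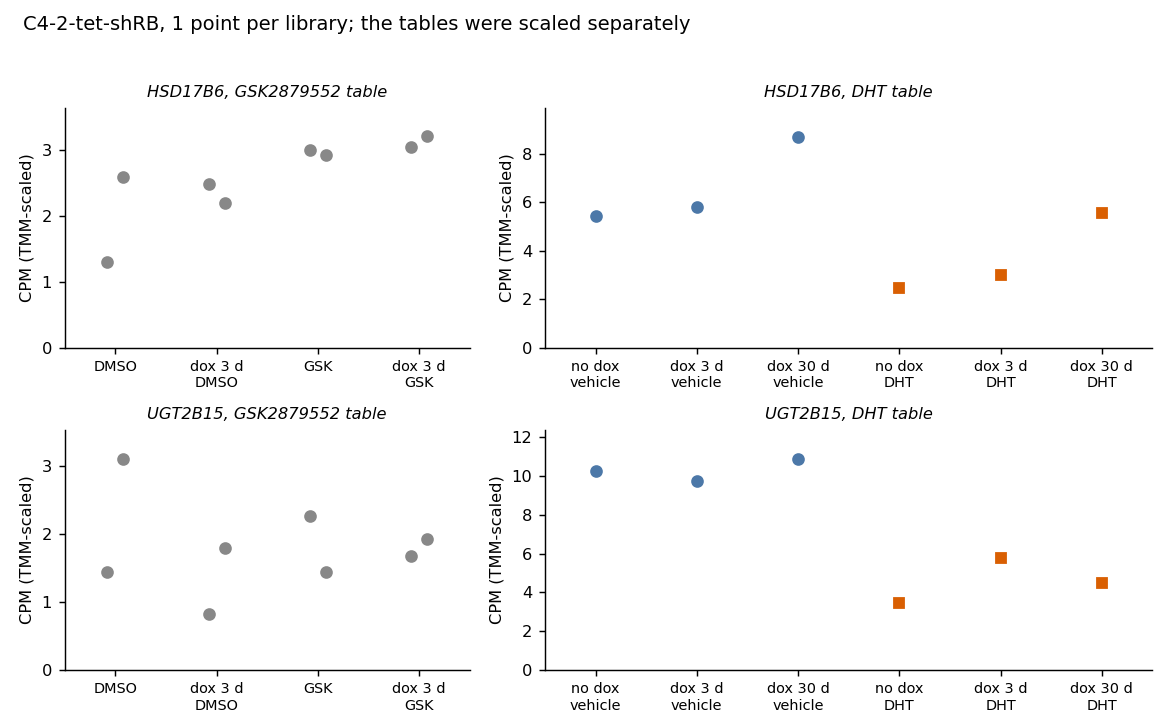
CPM of HSD17B6 and UGT2B15 in both C4-2 experiments, 1 point per library, with the groups along the axis and a separate scale for each panel. HSD17B6 is highest after 30 days of doxycycline in each hormone state (8.69 and 5.54 CPM), and in the experiment with GSK2879552 its 4 inhibitor libraries (2.93 to 3.23 CPM) lie above the 4 with DMSO (1.30 to 2.60 CPM).

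Inhibition of LSD1 by GSK2879552 called no member in C4-2 cells. This was 0 of 6 without doxycycline (0.678% of 18423 genes by edgeR, 1 member at an unadjusted p under 0.05), 0 of 6 with doxycycline (1.34%, 0 members) and 0 of 6 for the difference between these effects (0.0163%, 0 members). DESeq2 called none of the members to which it gave an adjusted p. HSD17B6 was at 1.30 and 2.60 CPM with DMSO and at 3.01 and 2.93 CPM with the inhibitor, and in cells with doxycycline at 2.49 and 2.20 CPM and at 3.06 and 3.23 CPM. In both settings the inhibitor libraries lay above those with DMSO, the only member of 6 for which the 4 libraries of each kind did not overlap, against 6.27% of 17612 genes. In the same libraries the summed neuroendocrine list was at 203 to 248 CPM with DMSO and 254 to 277 CPM with the inhibitor, and the leukocyte list at 0.852 to 1.08 and 1.16 to 1.36 CPM. The neuroendocrine sum was nearly all 1 gene, ENO2 (199 to 273 CPM), with SYP at 1.44 to 3.81 CPM and CHGA at most 0.412 CPM. The part of these lists in the HSD17B6 values was not tested. The log2 changes were 0.58 ± 0.27 (edgeR, adjusted p = 0.398) and 0.43 ± 0.24 (edgeR, adjusted p = 0.562), and they rest on 19 to 65 counts per library.

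UGT2B15 changed by -0.28 ± 0.36 and 0.44 ± 0.38 on the log2 scale with the inhibitor, and UGT2B17 by 0.68 ± 0.36 and 0.28 ± 0.33, none of them called. HSD17B4 changed by 0.07 ± 0.07 and 0.05 ± 0.07, SRD5A1 by 0.07 ± 0.11 and -0.01 ± 0.11, and SRD5A3 by 0.05 ± 0.09 and 0.18 ± 0.09, also without a call. Among the other pathway genes, HSD17B11 rose by 1.06 ± 0.18 and 0.94 ± 0.17 and the peroxisomal carnitine acetyltransferase CRAT by 0.60 ± 0.07 and 0.66 ± 0.07 without and with doxycycline (edgeR, adjusted p under 0.05). With doxycycline itself HSD17B14, another 17β-hydroxysteroid dehydrogenase, fell by 1.08 with DMSO and by 0.83 with GSK2879552 on the log2 scale. UGDH, which makes UDP-glucuronate, rose by 0.37 ± 0.09 with DMSO, and GUSB by 0.25 ± 0.07, while UGT8 rose by 0.51 ± 0.12 with GSK2879552. After 30 days of doxycycline in the DHT experiment GUSB rose by 0.30 ± 0.08, CRAT by 0.42 ± 0.09 and the retinol and steroid dehydrogenase DHRS9 by 3.12 ± 0.90.

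In LNCaP, where UGT2B15 and UGT2B17 were highest, 1 library was compared with 1 and no test was possible. UGT2B17 had 977 counts with vehicle and 857 with GSK2879552, a ratio of 0.918 (95% interval 0.836 to 1.01). UGT2B15 had 544 and 478 counts, a ratio of 0.919 (0.811 to 1.04). Both intervals include 1, and they cover counting error only. The ratio was 1.05 (0.996 to 1.11) for HSD17B4, 1.23 (1.05 to 1.44) for SRD5A1 and 1.01 (0.887 to 1.16) for SRD5A3. None of these 5 members was past 2-fold, where 2.98% of 11955 genes were. HSD17B6 (6 and 14 counts), UGT2B11 (14 and 11), UGT2B10 (4 and 2), UGT2B7 (1 and 4) and UGT2B28 (0 and 3) were too low to be compared.

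For UGT2B11, taken by rule as the UGT2B gene with the highest mean CPM over the 14 C4-2 libraries (4.29, with UGT2B15 at 4.22), the genes with the most similar pattern were sought among 12715 candidates by the smaller of 2 Pearson correlations, over the 8 and the 6 libraries of the 2 experiments. They were PSME2 (0.93 and 0.97), VGF (0.86 and 0.93), MAP7 (0.84 and 1.00), MERTK (0.84 and 0.99) and MINOS1 (0.84 and 1.00). That mean pools 2 separately scaled tables and is carried by the 3 DHT libraries: in the 11 C4-2 libraries without DHT, UGT2B15 was above UGT2B11 per kb in each. The correlations describe the libraries, which share depth and treatment, and UGT2B11 had at most 9 counts per library in the experiment with GSK2879552.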

How the data were processed

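Poly-A or total RNA libraries of 3 prostate cancer lines were analysed from 4 deposited tables of raw read counts per Ensembl gene. The authors made these counts with STAR 2.7.2 and featureCounts 1.6.4 on hg19 after FastQC 0.11.9, per the submitters' processing notes. The annotation release, strand setting and treatment of reads matching several genes are not given in the sources used here. Lanes that carried the same library name were summed, leaving 22 libraries from 30 columns. Each table was filtered with filterByExpr, scaled by TMM and fitted with edgeR 4.0.16 (R 4.3.3) by the quasi-likelihood F test, with Benjamini-Hochberg adjustment over all genes tested and a call at an adjusted p under 0.05. The SE is the log2 change divided by the root of F. The DHT fit had doxycycline level as a second term and 2 residual degrees of freedom, and so assumes 1 common DHT response. Pairs of single libraries were compared by exact binomial intervals (95%), without a test, where both held 100 counts or more together. The members and gene lists were chosen with earlier results of these data known. Members were named in full where tested, and genes of other lists where called, at most 2 in each direction, and a few genes that this rule would name are not reported here. The scripts were tested on simulated data. Alternatives were DESeq2 1.42.0, other scalings, no filter, lanes alone, replicate blocks and each library left out. Same-numbered replicates deviated together little or not at all (correlations 0.0103 to 0.0284 in VCaP and -0.127 to 0.0323 in C4-2), and the main fits used no pairing. With 2 libraries per C4-2 group, differently numbered replicates mirror these values (-0.0323 to 0.127). The highest of them involved the inhibitor group without doxycycline. The crossed block given below reverses the replicate numbers of that group. Exon lengths and transcripts came from GENCODE and promoters from RefSeq, both on GRCh38, and none of their coordinates was joined to the counts.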

Additional observations from a re-analysis of the deposited data

How the results depend on the processing

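No called member changed direction under any alternative that gave it a value. Of the 75 tested member results, 30 that were not called changed sign under 56 alternatives, none of which gave a call. Of the other alternatives for members, 906 were the same, 7 gained a call, 4 lost it and 10 ratios moved beyond their interval. For tested results the same means that direction and side of the call threshold were kept. For ratios of single pairs it means a value within the counting interval, which can still cross the 2-fold limit. The ratio of HSD17B6 after 3 days of doxycycline did so (0.516, and as low as 0.461). The cause was not tested. With DESeq2 the genes called numbered 341 in VCaP (790 with edgeR; members 1 against 2), 5323 for DHT (8149), 26 for 3 days of doxycycline (81), 164 for 30 days (697; members 0 against 1, as no adjusted p was given), 16 for 30 against 3 days (56) and 7 for the difference of the GSK2879552 effects (3). Without the filter on low counts they were 330 for GSK2879552 alone (125), 406 with doxycycline (246), 39 for their difference, 222 for 3 days of doxycycline and 108 for 30 against 3 days (members 1 against 0). With the replicate number as a block, calls were 968 in VCaP (members 2), 908 for doxycycline with DMSO (1444), 903 with GSK2879552 (1422) and 161 for GSK2879552 with doxycycline (246), and no member's call changed. A crossed replicate block, chosen after seeing the data, gave 3051, 3084 (members 1), 727, 805 and 48 calls for the 5 comparisons of that table. Fits of only the 2 groups compared gave 3540, 477 and 1173 for doxycycline with DMSO, doxycycline with GSK2879552 and GSK2879552 with doxycycline. A minimum of 20 counts put 1802, 1381 and 1349 genes past 2-fold in the DHT pairs (922, 632 and 629) and 1124 in LNCaP (356; members 1 against 0). Single lanes put 2 members past 2-fold without doxycycline in either lane, and 2 after 30 days in lane 2, against 4 and 4.

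Leaving out each library gave 515 to 826 calls in VCaP (members 1 to 2), 279 to 3200 and 316 to 3201 for doxycycline with DMSO and with GSK2879552 (members 0 to 1 in both), 41 to 1735 and 78 to 947 for GSK2879552 without and with doxycycline, and 0 to 195 for their difference. It gave 19 to 1002 for 3 days of doxycycline, 207 to 1965 for 30 days (members 0 to 1), 35 to 352 for 30 against 3 days (members 0 to 1), 80 to 601 for the difference between experiments and 6672 to 7595 for DHT, where all 8 members stayed called. Where this left 1 library in a group, it was assumed to vary like the others. Low counts limit UGT2B7 and UGT2B10 in all lines, and UGT2B11 and UGT2B28 wherever DHT was not added.

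The log2 changes that changed sign when a library was left out spanned 0 as follows. For the difference between experiments, HSD17B4 ran from -0.10 to 0.082, HSD17B6 from -0.29 to 0.71, UGT2B11 from -0.66 to 5.38 (with the one DMSO library left at 0 counts, so no bound) and UGT2B17 from -0.43 to 0.17. For the difference of the GSK2879552 effects, HSD17B4 ran from -0.12 to 0.085, HSD17B6 from -0.75 to 0.24 and SRD5A1 from -0.19 to 0.0058. For 3 days of doxycycline, HSD17B4 ran from -0.19 to 0.0012 and UGT2B15 from -0.055 to 0.64. For 30 against 3 days, HSD17B4 ran from -0.051 to 0.091, SRD5A1 from -0.12 to 0.0015, UGT2B11 from -0.13 to 0.12, UGT2B15 from -0.46 to 0.22, UGT2B17 from -0.17 to 0.42 and UGT2B28 from -0.31 to 0.12. For 30 days of doxycycline, HSD17B4 ran from -0.17 to 0.018, UGT2B15 from -0.021 to 0.59 and UGT2B28 from -0.11 to 0.32. For doxycycline with DMSO, HSD17B6 ran from -0.16 to 0.82 and UGT2B17 from -0.050 to 0.53. For doxycycline with GSK2879552, UGT2B15 ran from -0.32 to 0.31 and UGT2B17 from -0.37 to 0.11. For GSK2879552 with doxycycline, HSD17B4 ran from -0.0019 to 0.090 and SRD5A1 from -0.049 to 0.010. For GSK2879552 without doxycycline, HSD17B4 ran from -0.037 to 0.16, SRD5A1 from -0.024 to 0.18, SRD5A3 from -0.070 to 0.15 and UGT2B15 from -0.71 to 0.38. For RB1 siRNA in VCaP, SRD5A3 ran from -0.020 to 0.077. Summing the UGT2B counts gave -0.42 for UGT2B17 with doxycycline and DMSO, 0.047 for UGT2B15 with GSK2879552 alone, 0.33 for UGT2B17 in the difference of the GSK2879552 effects, and 0.12 for UGT2B28 and -0.012 for UGT2B17 after 30 days against 0 and 3 days. The crossed block gave 0.011 for UGT2B15 (doxycycline with GSK2879552), and no filter gave -0.014 for UGT2B17 (30 against 3 days) and 0.024 for HSD17B4 (difference between experiments). In LNCaP the ratio of SRD5A3 was 0.906 in lane 1 alone.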
